A study of Mus musculus with 2 samples.

Results

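Interferon-stimulated genes, the antiviral and immune genes that cells switch on through interferon receptors, were read in cultured Nestin+ stromal cells from mouse bone marrow and heart. The 38 genes were taken by name from a list of known interferon-stimulated genes, out of 49583 gene names in the deposited tables. No threshold was put on their values, but the genes and their classes were chosen with earlier results of these data known. All 38 were found, 34 reached 1 RPKM in at least 1 library and 27 reached 5 RPKM. RPKM scales the reads of a gene by the length of its model and by the depth of the library, so levels can be set side by side between genes.

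Both cultures came from Nestin-GFP transgenic C57BL/6 mice, in which a green fluorescent protein reporter marks cells that use the gene of the intermediate filament protein nestin. The mice were 7 days old and the cells were at passage 10, and 1 RNA sequencing library was made per tissue, so the differences given here have no replicate check. The medium of the heart cells held 20 ng/ml of each of the growth factors EGF and bFGF and 4 ng/ml of the cytokine cardiotrophin-1 (CT-1), the bone marrow cells had another medium, and no interferon is named for either. Tissue and medium cannot be told apart, and how many mice gave each culture is not given in the sources used here.

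Type I interferons bind the receptor made of Ifnar1 and Ifnar2 and act through a complex that holds Stat2 and Irf9 and binds the interferon-stimulated response element of its target genes. Interferon gamma binds Ifngr1 and Ifngr2, and its target genes often carry the gamma-activated site. The Ifit, Oas and Mx families are antiviral effectors and are known mainly as type I targets, the Gbp and Irg families are guanine nucleotide hydrolases that act on intracellular pathogens and respond strongly to interferon gamma, and the Irf and Stat genes encode the transcription factors that carry the signal.

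The recovered read totals were 53999963 for bone marrow and 64872683 for heart. All 6 stromal markers reached 1 RPKM in at least 1 library, and Nes stood at 1.20 RPKM in the marrow cells and 8.74 in the heart cells, although the cells of both tissues are labelled Nestin+. Of the other stromal markers Thy1 stood at 0.0603 and 16.7 RPKM and Pdgfra at 11.6 and 27.6, both at least 2-fold higher in heart. Of the 6 macrophage markers found only the lysozyme gene Lyz2 passed 1 RPKM, at 1.05 and 1.08, and their sum was 1.58 RPKM in the marrow cells and 1.75 in the heart cells. The pan-leukocyte gene Ptprc stood at 0.0047 RPKM in marrow cells and was listed at 0 in heart. Of 5 endothelial markers only Vwf passed 1 RPKM, at 1.13 in marrow cells and 0.0077 in heart cells. None of the 4 lymphocyte and plasmacytoid dendritic cell markers, and none of the 4 cardiomyocyte markers, reached 1 RPKM. In libraries of many cells, fewer cells that use a gene and less of its RNA per cell cannot be told apart.

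Ratios are given as log2((heart + 1)/(bone marrow + 1)) on RPKM, which understates differences of low genes, and the 2-fold rule asks for a value of at least 1 in size and for at least 5 RPKM in the library with more. Of the 27 members past the 5 RPKM floor, 4 were higher in heart by this rule (14.8%), beside 7.56% of all genes past that floor. Another 3 members were higher in bone marrow (11.1%), beside 9.51% of all genes. With a floor of 1 RPKM the counts were 6 of 34 in heart (17.6%, beside 7.77% of all genes) and 3 of 34 in bone marrow (8.82%, beside 9.26%). The members thus went in both directions, and the share toward bone marrow was near that of all genes. The median ratio of the 34 members at or above 1 RPKM was 0.26, beside -0.11 over the 11357 genes at or above 1 RPKM, of which 42.0% had a ratio above 0. Of all 38 members 24 had a ratio above 0. That count includes 4 members below 1 RPKM in both libraries, so it is not on the same filter as the 42.0%. Scaling the libraries so that the median ratio of abundant genes is 0 adds 0.15 to the log2 ratios of abundant genes. It adds less to those of low genes, because of the added 1 RPKM. The split then became 7 members higher in heart and 2 in bone marrow, while 4 members just below 0 (Irf9, Ddx58, Dhx58 and Ifi35) moved above it. The scaling moves all genes, and their shares were not computed under it, so these counts have no share to stand beside.

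**Figure D1:**
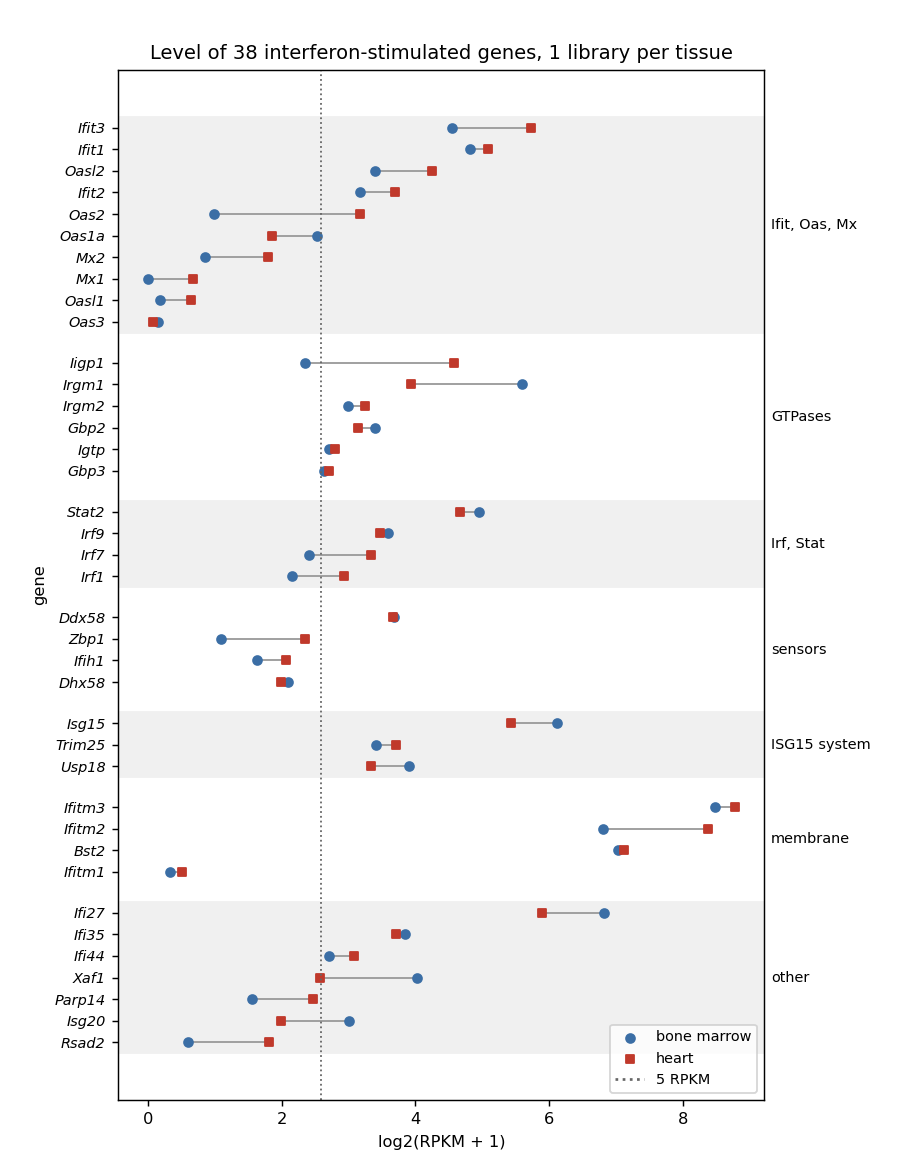
Level of each of the 38 members as log2(RPKM + 1) in bone marrow (circles) and heart (squares), 1 library each, grouped by role and ordered by the heart level, with a dotted line at 5 RPKM. The 2 points of most genes lie close together, and the widest gaps belong to Oas2, Iigp1, Irgm1, Ifitm2 and Xaf1.

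The members of the 3 classes were spread as follows. Beside them stand, over all genes, the shares past the 5 RPKM floor of 7.56% toward heart and 9.51% toward bone marrow. The 42.0% with a ratio above 0 is over genes at or above 1 RPKM, a filter not put on the class counts of ratios above 0. Among the Ifit, Oas and Mx members 8 of 10 had a ratio above 0. Of these 10, 3 were below 1 RPKM in both libraries, among them Mx1, listed at 0 in bone marrow. Of the 5 that reached 5 RPKM, 2 were higher in heart and none in bone marrow, and the median was 0.86 over the 7 at or above 1 RPKM (0.59 over all 10). The Gbp and Irg GTPases had 4 of 6 above 0 and a median of 0.079, and of the 6, which all reached 5 RPKM, 1 was higher in each library. The Irf and Stat members had 2 of 4 above 0 and a median of 0.33, and none of the 4, which all reached 5 RPKM, met the 2-fold rule. The classes hold few genes and share the same 2 libraries, and neither these counts nor the differences between the medians were tested.

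RefSeq promoters, 250 bases before to 50 after the transcription start on GRCm38.p6, were held for 29 of the 38 members. Ifi27, Dhx58, Usp18, Oas2, Mx1, Mx2, Iigp1, Parp14 and Zbp1 are named only. On both strands these windows were searched for the core of the interferon-stimulated response element (ISRE), GAAANNGAAA, where N is any base, and for the gamma-activated site (GAS), TTCNNNGAA, which reads the same on both strands. A match of either motif may overlap one of the other. The ISRE core was present for 17 of the 29 members (58.6%), beside 3.44% of the 32851 promoters of the table and 3.99% of its 27025 gene symbols. A GAS match was present for 9 (31.0%), beside 8.30% of promoters and 9.55% of symbols. By class, the ISRE core was found for 4 of 7 Ifit, Oas and Mx members, 5 of 5 GTPases and 1 of 4 Irf and Stat members. A match describes letters in the window and is not a binding site, and the members were listed for their known response to interferon.

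**Figure D2:**
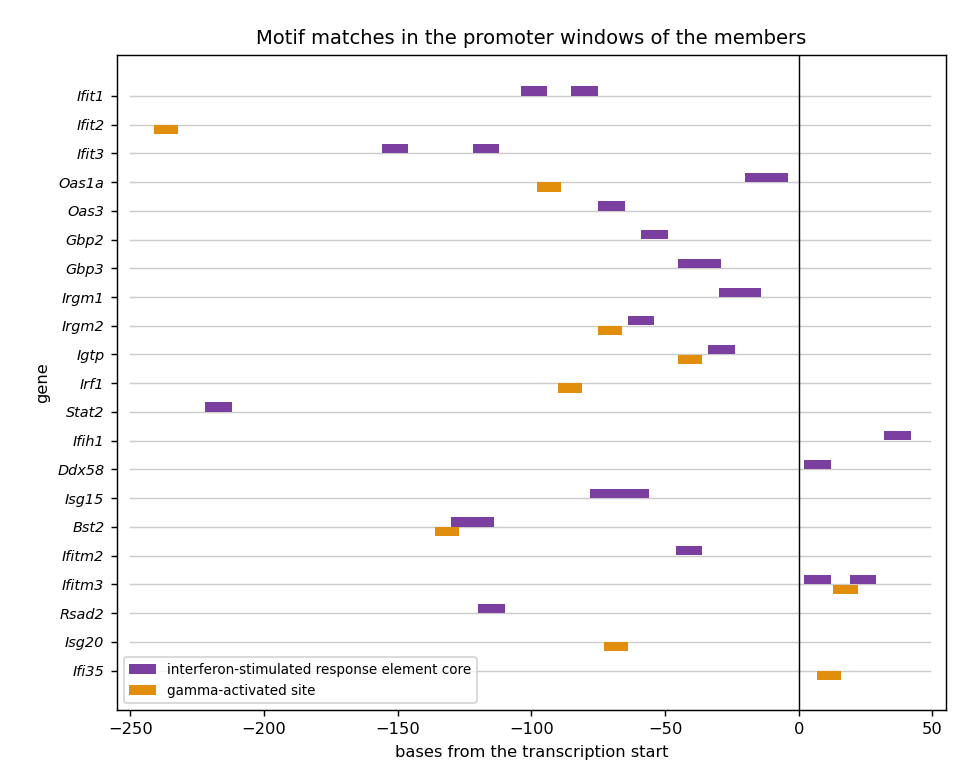
Position of ISRE core matches (purple) and GAS matches (orange) in bases from the transcription start, for the members with at least 1 match, over the window from 250 bases before to 50 after the start. Ifit1 and Ifit3 hold a pair of separate ISRE cores, while in Igtp and Irgm2 a GAS match stands just before an ISRE core.

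The Ifit genes, whose proteins bind foreign RNA and hold back its translation, were above the 5 RPKM floor in both libraries. Ifit3 (plus strand of chromosome 19, 34583531 to 34588731) stood at 22.5 RPKM in the marrow cells and 52.2 in the heart cells, with 2119 and 5907 reads. It was higher in heart by the 2-fold rule, with a log2 ratio of 1.18 and a heart to bone marrow ratio of 2.32. The exact 95% interval of that ratio from the read counts was 2.21 to 2.44, and such intervals cover counting error in these 2 libraries only. Ifit1 stood at 27.0 and 32.9 RPKM, a ratio of 1.22 with an interval of 1.17 to 1.27. Ifit2 stood at 8.04 and 11.9 RPKM, a ratio of 1.49 with an interval of 1.40 to 1.58. All 3 neighbours on chromosome 19 were thus above 1, but the ratio of Ifit3 was outside the intervals of the other 2. Its near copy Ifit3b stood at 5.56 and 11.5 RPKM, and the sum of both, 28.1 and 63.7 RPKM, had a log2 ratio of 1.15, so reads shared between the copies would not move the value of the pair. The promoter of Ifit3 (the 250 bases before the start) and a stretch of that of Ifit1 are shown because both carry the same pair of ISRE cores (capitals) while the genes differed in their ratio.
Ifit3 (chr19:34583279-34583528, plus strand): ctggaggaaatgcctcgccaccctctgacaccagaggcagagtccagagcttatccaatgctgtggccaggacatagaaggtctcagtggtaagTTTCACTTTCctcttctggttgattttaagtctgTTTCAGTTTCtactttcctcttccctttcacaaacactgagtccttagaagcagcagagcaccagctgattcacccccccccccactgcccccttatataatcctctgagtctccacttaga
Ifit1 (chr19:34640775-34640823, plus strand): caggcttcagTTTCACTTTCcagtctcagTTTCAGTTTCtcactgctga
Both contain TTTCACTTTC followed by TTTCAGTTTC, the core read on the other strand, at -156 and -122 from the start in Ifit3 and at -104 and -85 in Ifit1.

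The Oas genes encode sensors of double-stranded RNA that make the second messenger oligoadenylate and so activate ribonuclease L. Oas2 (chromosome 5, 120730333 to 120749853, minus strand) stood at 0.986 RPKM in the marrow cells and 7.99 in the heart cells, with 237 and 2308 reads. Its log2 ratio was 2.18, and the ratio of 8.11 had an interval of 7.09 to 9.31. Oas1a, from the same locus, went the other way, with 4.77 RPKM in the marrow cells and 2.63 in the heart cells. It was 1.81-fold higher in bone marrow, with an interval of 1.57 to 2.09, and lay under the 5 RPKM floor in both libraries. Summed with its near copy Oas1g, it had a log2 ratio of -0.62. Oas3, which lies between them, was close to 0 in both, at 0.113 and 0.0560 RPKM. Members of 1 gene cluster thus differed in direction and in level. The 2′-5′ oligoadenylate synthetase-like genes Oasl1 and Oasl2 both stood higher in heart, short of the rule. Oasl2 was at 9.48 and 18.1 RPKM, a log2 ratio of 0.86, and Oasl1 at 0.135 and 0.567 RPKM, with 19 and 96 reads. The windows of Oas1a and Oas3 are shown because their genes share a locus and an ISRE core before the start but not a level.
Oas1a (chr5:120907526-120907555, minus strand): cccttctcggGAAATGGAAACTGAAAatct
Oas3 (chr5:120777715-120777744, minus strand): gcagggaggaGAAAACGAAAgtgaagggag
In Oas1a 2 overlapping cores run together in the capitals, whereas Oas3 holds 1.

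The Mx genes encode dynamin-like GTPases that act against viruses. Most laboratory strains, C57BL/6 among them, carry a defective Mx1 gene. Mx1 was listed at 0 in bone marrow and stood at 0.592 RPKM in heart, so no fold is given. Mx2 stood at 0.815 RPKM in the marrow cells and 2.47 in the heart cells, with 159 and 579 reads, a ratio of 3.03 with an interval of 2.54 to 3.64. Both were under the 5 RPKM floor, where they count as neither, and the exact 0 of Mx1 gives no direction.

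The log2 ratios of the 38 members ran from that of Irgm1 toward bone marrow to that of Iigp1 toward heart, both GTPases of the Irg family, on the scale with 1 RPKM added. With 0.1 RPKM added, Oas2 (2.90) passed Iigp1 (2.44). Irgm1 (chromosome 11, 48861968 to 48871683, minus strand), which encodes a regulator that keeps effector GTPases off the cell's own membranes, stood at 47.4 RPKM in the marrow cells and 14.2 in the heart cells, with 14864 and 5357 reads. It was 3.33-fold higher in bone marrow, with an interval of 3.23 to 3.44 and a log2 ratio of -1.67. Iigp1, an effector that loads onto parasite vacuoles, stood at 4.11 RPKM in the marrow cells and 22.8 in the heart cells. Its log2 ratio was 2.22 and its ratio 5.54, with no counting interval because its reads could not be recovered.

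The other 4 GTPases were within 2-fold. Irgm2, a regulator like Irgm1, stood at 7.00 and 8.50 RPKM, a ratio of 1.21 with an interval of 1.13 to 1.30. Igtp, the third regulator, which is also called Irgm3, stood at 5.56 and 5.96 RPKM, and its interval of 0.963 to 1.19 included 1. The 3 regulators thus did not move together, since Irgm1 alone met the 2-fold rule. The gene models of Irgm2 and Igtp overlap by 7974 bases on the same strand, so their reads are uncertain, and their sum had a log2 ratio of 0.19. Gbp2, a guanylate-binding protein that coats pathogen vacuoles, stood at 9.53 and 7.81 RPKM, 1.22-fold higher in bone marrow with an interval of 1.13 to 1.32. Its neighbour Gbp3 stood at 5.20 and 5.52 RPKM, with an interval of 0.972 to 1.16 for the ratio. All 5 GTPases in the promoter table held an ISRE core, shown with the motif letters in capitals because the 3 regulators that carry it differed in their ratio.
Irgm1 (chr11:48871421-48871670, minus strand): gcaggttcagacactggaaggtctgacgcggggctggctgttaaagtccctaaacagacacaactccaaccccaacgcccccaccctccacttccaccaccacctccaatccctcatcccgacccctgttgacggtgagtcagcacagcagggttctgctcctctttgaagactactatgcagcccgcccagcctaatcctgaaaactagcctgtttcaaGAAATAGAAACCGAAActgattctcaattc
Irgm2 (chr11:58214892-58214932, plus strand): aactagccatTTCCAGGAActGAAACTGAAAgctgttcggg
Igtp (chr11:58199501-58199541, plus strand): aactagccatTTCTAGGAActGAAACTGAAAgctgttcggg
Gbp2 (chr3:142620594-142620623, plus strand): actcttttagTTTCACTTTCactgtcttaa
Gbp3 (chr3:142559989-142560024, plus strand): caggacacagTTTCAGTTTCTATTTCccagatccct
In Irgm2 and Igtp a GAS match ends 2 bases before the ISRE core, and their 41-base windows differ at 1 base. The RefSeq starts of Irgm1, Irgm2, Gbp2 and Gbp3 lie inside the deposited regions of these genes. The stretches shown for Irgm1 and Irgm2 lie wholly inside those regions. Irgm1 holds 2 overlapping ISRE cores beginning at -30 from the start and no GAS match in its window.

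**Figure D3:**
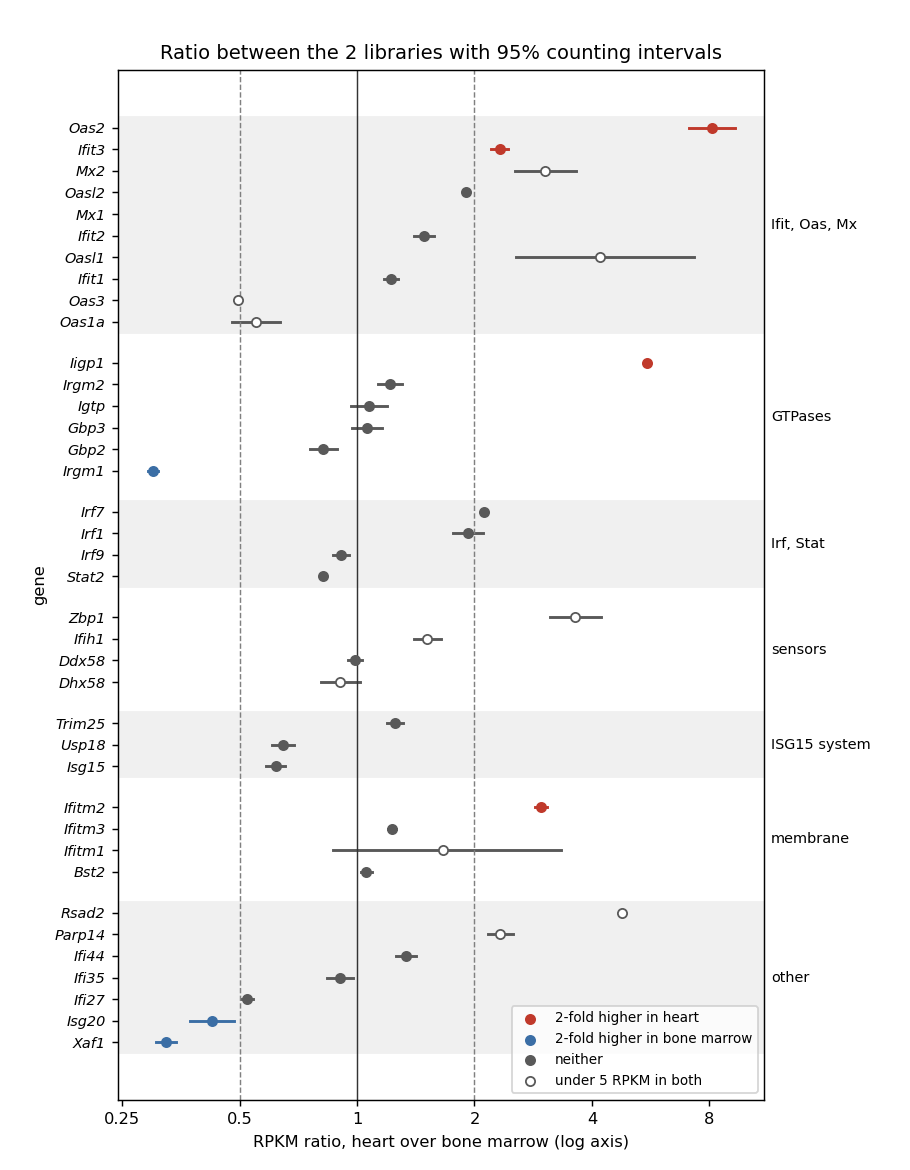
Heart to bone marrow ratio of RPKM (log axis) for each member by role, with exact 95% counting intervals as bars for the 31 members whose reads were recovered, and dashed lines at 2-fold; Mx1, listed at 0 in bone marrow, has no point. Filled red and blue points mark the 4 members counted as higher in heart and the 3 higher in bone marrow, while open points are under 5 RPKM in both libraries and count as neither.

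Each of the 4 transcription factor genes differed by less than 2-fold between the libraries on the scale with 1 RPKM added. Irf7, which encodes the factor that amplifies type I interferon genes, stood at 4.32 RPKM in the marrow cells and 9.11 in the heart cells, a log2 ratio of 0.93, and without the added 1 RPKM its ratio was 2.11. Irf1, a factor induced strongly by interferon gamma, stood at 3.45 and 6.64 RPKM from 741 and 1713 reads, a ratio of 1.92 with an interval of 1.76 to 2.10. Both thus stood higher in heart, while Stat2 and Irf9, of the type I complex, did not. Stat2 (chromosome 10) stood at 29.9 RPKM in the marrow cells and 24.4 in the heart cells, a log2 ratio of -0.28. Irf9 stood at 11.05 and 10.1 RPKM, a log2 ratio of -0.12 that became 0.01 with the median of abundant genes set to 0. Irf7 shares 45 bases with Phrf1 on the opposite strand, and Irf9 shares 123 with Rnf31 on its own strand, so part of their reads may belong to the neighbour. The promoter of Stat2, the most abundant of the 4, is shown as the one that held an ISRE core, in capitals, far from its start at -222.
Stat2 (chr10:128270248-128270497, plus strand): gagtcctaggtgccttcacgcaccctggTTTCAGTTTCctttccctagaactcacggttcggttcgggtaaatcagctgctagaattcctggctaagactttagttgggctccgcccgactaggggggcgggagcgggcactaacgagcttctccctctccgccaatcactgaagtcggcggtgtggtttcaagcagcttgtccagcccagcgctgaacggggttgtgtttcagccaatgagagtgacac

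The sensor genes encode proteins that detect viral nucleic acids. Ddx58, which encodes RIG-I, stood at 11.8 RPKM in the marrow cells and 11.7 in the heart cells, and its ratio interval of 0.95 to 1.03 included 1. Ifih1, which encodes MDA5, stood at 2.10 and 3.18 RPKM, a ratio of 1.51 with an interval of 1.40 to 1.64. Dhx58, which encodes the regulator LGP2, stood at 3.29 and 2.98 RPKM, with an interval of 0.809 to 1.02. With the libraries scaled by their totals, the intervals of Ddx58 and Dhx58 thus included 1, while that of Ifih1 lay above it. With the median of abundant genes set to 0, the log2 ratio was 0.12 for Ddx58 and 0.006 for Dhx58. Zbp1, a sensor of left-handed nucleic acid that can start cell death, stood at 1.13 and 4.11 RPKM from 216 and 940 reads. Its ratio of 3.62 had an interval of 3.12 to 4.22, and it counts as higher in heart only with the floor at 1 RPKM or with no floor.

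In the ISG15 system the modifier and its protease stood higher in bone marrow, short of the rule. Isg15, the ubiquitin-like protein that is joined to other proteins in response to interferon, stood at 68.1 RPKM in the marrow cells and 42.1 in the heart cells, 1.62-fold higher in bone marrow with an interval of 1.53 to 1.71. Usp18, the protease that removes Isg15 and dampens signalling at Ifnar2, stood at 14.1 and 9.06 RPKM, 1.55-fold higher in bone marrow with an interval of 1.45 to 1.66. Trim25, a ubiquitin ligase that acts on RIG-I, went the other way at 9.60 and 12.0 RPKM. None of the 3 met the 2-fold rule. The window of Isg15 is shown because it holds 3 overlapping ISRE cores, more than any other member in the table.
Isg15 (chr4:156200865-156200906, minus strand): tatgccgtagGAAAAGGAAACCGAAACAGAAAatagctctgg

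The membrane restriction factors included the most abundant members. Ifitm3, which hinders fusion of virus with endosomes, stood at 355 RPKM in the marrow cells and 437 in the heart cells and ranked 85 and 63 among all gene names. Its relative Ifitm2 (chromosome 7, 140954837 to 140955987, minus strand) stood at 111 RPKM in the marrow cells and 329 in the heart cells, with 3934 and 13991 reads. Ifitm2 was higher in heart, with a log2 ratio of 1.56 and a ratio of 2.96 with an interval of 2.86 to 3.07. The ratio of Ifitm3 was 1.23 with an interval of 1.20 to 1.26, so the pair differed although they lie at 1 locus. Ifitm1, from the same locus, was near 0 with 15 and 30 reads. Ifitm sequences are alike, and reads shared between them make the values uncertain. Bst2, or tetherin, which holds budding virus on the cell surface, stood at 129.7 and 137 RPKM, a ratio of 1.06 with an interval of 1.02 to 1.09. The promoter of Ifitm2 and a window of that of Bst2 are shown, with motif letters in capitals, as those of abundant genes with an ISRE core before the start and unlike ratios.
Ifitm2 (chr7:140955962-140956211, minus strand): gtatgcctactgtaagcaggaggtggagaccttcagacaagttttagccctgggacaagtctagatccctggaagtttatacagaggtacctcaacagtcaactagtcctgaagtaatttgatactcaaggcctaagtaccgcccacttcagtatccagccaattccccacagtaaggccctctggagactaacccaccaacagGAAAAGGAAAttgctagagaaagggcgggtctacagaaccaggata
Bst2 (chr8:71537577-71537618, minus strand): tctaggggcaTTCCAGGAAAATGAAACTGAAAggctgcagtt
In Bst2 a GAS match overlaps the first of 2 overlapping ISRE cores.

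Members of a family that lie together were also set side by side along their loci. The Ifit, Oas and Ifitm loci, which span 99.3, 177 and 55.9 kb, each held 1 gene past the 2-fold rule, higher in heart. The stretch of 202 kb from Irgm1 to Tgtp2 was chosen after its values were seen. Of its 9 rows 6 reached 1 RPKM, and those 6 were all lower in heart. Over all genes past the 5 RPKM floor, 7.56% were higher in heart and 9.51% in bone marrow. Of all genes at or above 1 RPKM, 42.0% had a ratio above 0. The loci hold genes under the floor and near copies, so their counts are not shares on the same set, and they were not tested.

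**Figure D4:**
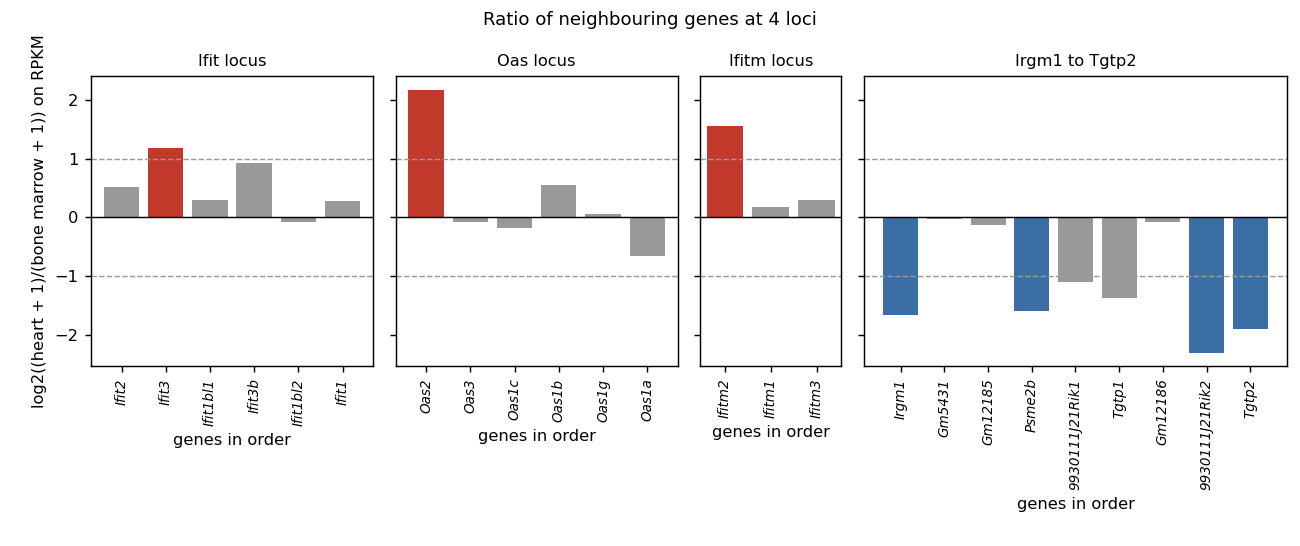
Log2 ratio of heart to bone marrow for genes in their order along 4 loci, showing rows that reached 0.05 RPKM in either library, with red and blue bars for genes counted as higher in heart or bone marrow and dashed lines at 2-fold. In each of the Ifit, Oas and Ifitm loci 1 gene passes the 2-fold rule, while from Irgm1 to Tgtp2 the 6 genes at or above 1 RPKM all lie below -1.

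Xaf1 and Isg20, among the remaining effectors, were the other 2 members higher in bone marrow by the 2-fold rule. Xaf1 (chromosome 11, 72301629 to 72313733, plus strand), which encodes a binding partner of the apoptosis inhibitor XIAP, stood at 15.3 RPKM in the marrow cells and 4.95 in the heart cells, with 3874 and 1506 reads. It was 3.09-fold higher in bone marrow, with an interval of 2.91 to 3.28. Isg20 (chromosome 7, 78913424 to 78920396, plus strand), an exonuclease that degrades RNA, stood at 7.04 and 2.99 RPKM from 707 and 361 reads. Its fold of 2.35 had an interval of 2.07 to 2.68, but its log2 ratio of -1.01 was at the edge of the rule and no longer met it under any of the 3 scalings tried.

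Ifi27, a mitochondrial protein gene often used to mark a type I response, was the most abundant of this group. It stood at 111 RPKM in the marrow cells and 58.2 in the heart cells, 1.92-fold higher in bone marrow with an interval of 1.85 to 1.98, just short of the rule. Rsad2, which encodes the antiviral enzyme viperin, stood at 0.526 and 2.51 RPKM, a log2 ratio of 1.20 at a level under the floor. Parp14, which encodes an ADP-ribosyltransferase, stood at 1.94 and 4.51 RPKM, a ratio of 2.33 with an interval of 2.16 to 2.51. These last 2 stood higher in heart and Ifi27 lower, so the group had no shared direction. Ifi44 stood at 5.57 and 7.45 RPKM and Ifi35 at 13.3 and 12.0, both within 2-fold. The 250 bases before the starts of Isg20 and Xaf1 are shown because the genes were higher in bone marrow and neither window held an ISRE core, while Isg20 held a GAS match, in capitals.
Isg20 (chr7:78913174-78913423, plus strand): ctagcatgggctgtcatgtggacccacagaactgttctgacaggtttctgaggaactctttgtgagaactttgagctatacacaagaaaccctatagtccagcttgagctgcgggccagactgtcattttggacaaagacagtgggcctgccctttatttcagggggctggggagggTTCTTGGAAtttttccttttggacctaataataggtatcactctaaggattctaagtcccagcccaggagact
Xaf1 (chr11:72301379-72301628, plus strand): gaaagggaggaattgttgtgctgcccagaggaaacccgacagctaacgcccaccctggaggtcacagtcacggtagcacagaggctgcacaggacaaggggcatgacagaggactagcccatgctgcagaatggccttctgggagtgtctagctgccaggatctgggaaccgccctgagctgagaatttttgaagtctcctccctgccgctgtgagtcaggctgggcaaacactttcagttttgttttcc

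Members with and without the ISRE core had ratios in both directions, and a link between the core and the ratio was not tested. The 17 members that held it had ratios from -1.67 to 1.56 with a median of 0.079, and the 12 in the table without it had ratios from -1.45 to 0.93 with a median of 0.33. Of those with the core 2 were higher in heart and 1 in bone marrow, and of those without it none and 2. Over all genes past the 5 RPKM floor, 7.56% were higher in heart and 9.51% in bone marrow. Both groups of members include genes under that floor, which cannot meet the rule, so these counts are not shares on the same set. Oas2 and Iigp1, both higher in heart, are not in the promoter table.

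Upstream of the members, interferon ligands were at or near 0. Of 21 ligand genes none reached 1 RPKM and 15 were listed at 0 in both libraries. The highest was Ifnz, at 0.266 RPKM in the marrow cells and 0.358 in the heart cells, with 21 and 34 reads. Ifnb1, the type I interferon made by most cell types, had 0 reads in the marrow cells and 2 in the heart cells, while Ifng was listed at 0 in bone marrow and stood at 0.0128 RPKM in heart. Ifne, Ifna1 and Ifna4 had 2, 1 and 1 reads in bone marrow and 0 in heart. These counts are too low to compare the libraries.

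Of the 16 receptor and signalling genes 13 reached 1 RPKM in at least 1 library and 11 reached 5 RPKM. None of those 11 met the 2-fold rule, beside 7.56% of all genes past the floor toward heart and 9.51% toward bone marrow. The type I receptor genes stood higher in heart, Ifnar1 at 9.44 RPKM in the marrow cells and 17.4 in the heart cells (log2 ratio 0.81) and Ifnar2 at 8.52 and 16.6 (log2 ratio 0.89). The chains of the interferon gamma receptor went in opposite directions. Ifngr1, the chain that binds the ligand, stood at 24.8 RPKM in the marrow cells and 16.3 in the heart cells, a log2 ratio of -0.58. Ifngr2, the chain that signals, stood at 18.1 and 32.1 RPKM, a log2 ratio of 0.79. Ifnar2, Ifnar1 and Ifngr2 lie within 192 kb on chromosome 16, and the gene between them, Il10rb, had a log2 ratio of 0.06. The kinase Jak1 had a log2 ratio of 0.68, Jak2 0.06 and Tyk2 0.15. Stat3 had 0.61, Irf2 0.43 and Irf3 0.15. These kinases and factors thus passed 1 RPKM in both cultures. The feedback inhibitor Socs1 stood at 2.25 and 1.23 RPKM, a log2 ratio of -0.54. The lambda receptor chain Ifnlr1 and the factors Irf5 and Irf8 were below 1 RPKM in both libraries.

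**Figure D5:**
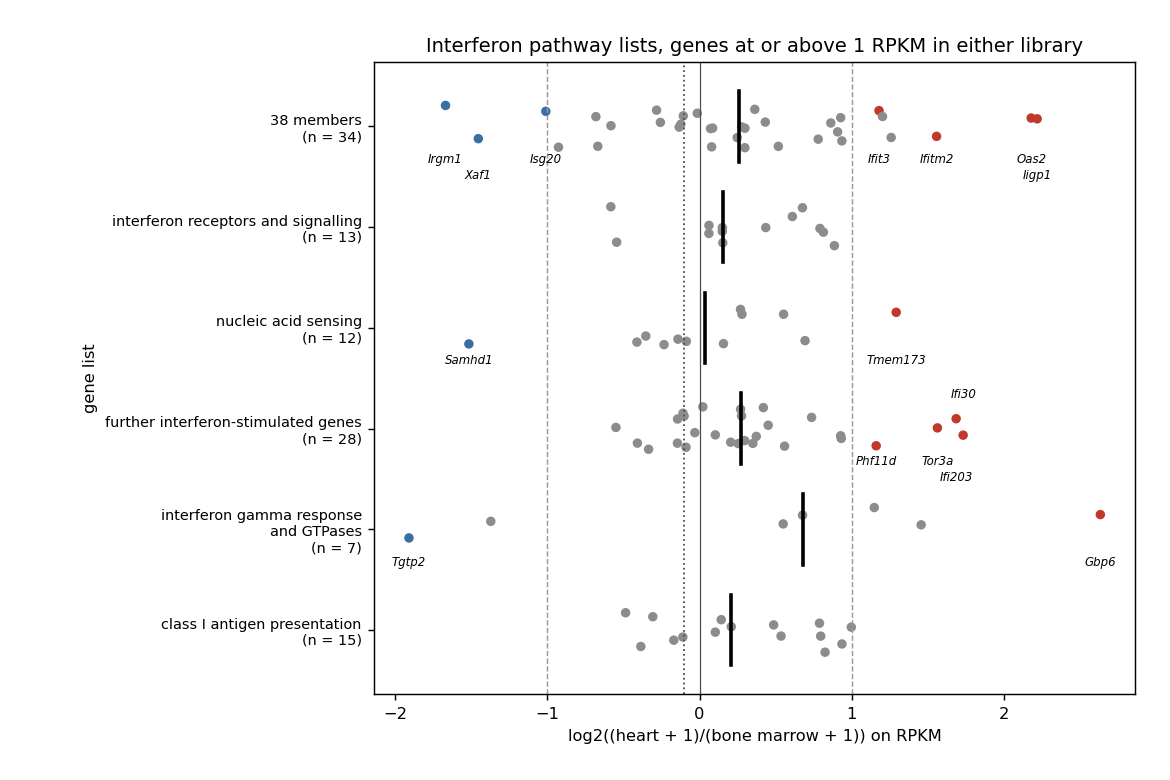
Log2 ratio of heart to bone marrow for genes at or above 1 RPKM in either library, 1 row per gene list, with black bars at the list medians, a dotted line at the median of all such genes (-0.11) and dashed lines at 2-fold. The receptor and class I lists stay within 2-fold, and the genes counted as higher in heart (red) or bone marrow (blue) are named.

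Other lists of the pathway gave counts on the same scale, against the same 7.56% and 9.51% of all genes past the floor. Of 36 further interferon-stimulated genes 21 reached 5 RPKM, 4 of those were higher in heart and none in bone marrow, and the median was 0.27 over the 28 at or above 1 RPKM. The 4 were Ifi30, a thiol reductase of antigen processing (28.2 and 96.0 RPKM), Ifi203, a gene of the DNA-binding interferon-inducible family (1.65 and 7.53), Tor3a, an ATPase of the torsin family (16.5 and 50.7), and Phf11d (3.38 and 8.80). Of 15 nucleic acid sensing genes 9 reached 5 RPKM. Tmem173, which encodes the adaptor STING, was higher in heart at 4.62 and 12.8 RPKM. Samhd1, a phosphohydrolase of deoxynucleotides, was higher in bone marrow at 9.61 and 2.71 RPKM. Tbk1, the kinase downstream of STING, and Trim56 had log2 ratios of -0.35 and 0.28.

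The list of interferon gamma targets and further GTPases was mostly low, with 16 of 23 genes below 1 RPKM in both libraries. Only 3 reached 5 RPKM. Gbp6 stood at 0.865 RPKM in the marrow cells and 10.6 in the heart cells, a log2 ratio of 2.63, and Tgtp2, an Irg GTPase, stood at 41.8 and 10.4 RPKM, a log2 ratio of -1.91. Gvin1, a very large inducible GTPase, had a log2 ratio of 0.68. As among the members, GTPases outside the list of 38 were found in both directions. Of 17 class I antigen presentation genes 12 reached 5 RPKM and none met the 2-fold rule. The closest were Tapbp (27.2 and 55.2 RPKM, a log2 ratio just under the rule), Psmb10 (0.94), Erap1 (0.82) and H2-T23 (0.80).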

How the data were processed

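Total RNA (1 ug) of each culture was made into 1 Illumina library, per the labels' protocols. The authors deposited RPKM per gene for each library, per the file headers. Per the submitters' processing notes the build was mm8, yet 45149 of 49585 rows (91.1%) sit exactly where GENCODE M21 places a gene on GRCm38, the build used for coordinates. The aligner, counter and strand setting were not given in the sources used here. Genes that overlap, on either strand, may therefore share reads. Exact zeros may be failed estimates and are given as listed at 0.

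With the exon-union lengths of those models, 12292 of 14255 rows above 0 in both libraries (86.2%) came out as whole reads within 0.02 reads, 31 of the 38 members among them. Exact conditional (Clopper-Pearson) 95% intervals of ratios were taken from these reads. Without molecular identifiers the reads may repeat molecules. The intervals hold counting error only and leave out the choice of scaling, so whether a narrow one includes 1 can depend on that choice. No count model was fitted, and with 1 library per tissue there is no p-value or standard error.

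All 38 members are named, with every receptor and signalling gene, every ligand above 0 and up to 4 genes at or above 5 RPKM with the largest log2 ratio from each other list. A gene that the rule takes is not reported here. Further, markers, near copies, overlapping genes and genes said to be chosen after their values were seen are named. The members, classes and lists were chosen with earlier results of these data known. Alternatives were pseudocounts of 0.1 and 5 RPKM, floors of 1 and 20 RPKM and none, a 4-fold threshold, 3 scalings and summed rows. The software was pandas 2.3.3, scipy 1.17.1, numpy 2.4.6 and matplotlib 3.10.9 under Python 3.11.15. On simulated data of 45149 genes for heart against bone marrow, the rule found 100% of 200 genes set apart 4- or 8-fold with their direction. It called 0 of 5487 unchanged genes, and 94.4% of 1000 intervals covered the simulated ratio. The 200 were drawn from abundant genes, their folds were well past the 2-fold rule, and counting error was the only noise. The simulation thus checks the code and gives no error rate for smaller folds, low genes or differences between cultures.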

Additional observations from a re-analysis of the deposited data

How the results depend on the processing

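Which members passed the 2-fold rule depended on the threshold, the floor and the scaling. Shares of all genes were computed only for the main setting and the floor of 1 RPKM. The counts below therefore have no such share beside them and describe the members only. At 4-fold 2 members stayed higher in heart (Oas2 and Iigp1) and 0 higher in bone marrow. With a floor of 20 RPKM 1 was higher in bone marrow, Irgm1, while Isg20, Xaf1 and, toward heart, Oas2 dropped out. With the median ratio set to 0, 7 were higher in heart, with Oasl2, Irf7 and Parp14 added, and Isg20 dropped out of those higher in bone marrow. Irf7 also counted as higher in heart with a pseudocount of 0.1 RPKM and with the libraries scaled by their upper quartiles. Isg20 also dropped out with a pseudocount of 5 RPKM. The median of the Irf and Stat members was 0.46 with the median ratio set to 0 and 0.19 with a pseudocount of 5 RPKM. The GTPase median was 0.21 with that scaling. The Ifit, Oas and Mx median was 0.38 with a pseudocount of 5 RPKM and 0.59 over all members above 0, and the median of all members was 0.086 over those at or above 5 RPKM and 0.40 with the scaling. All 4 of these medians stayed above 0 under every setting tried, but this is little check on their direction. Every scaling tried raised the heart values, by factors from 1.05 (trimmed mean) to 1.11 (median ratio). Another pseudocount cannot change the sign of a member's ratio, and summing the rows of a symbol left these medians as they were. No scaling toward bone marrow was tried. The recomputed ratios of single members numbered 228, and a reversal of direction was counted only for called members. No setting tried could change the sign of ratios as large as theirs, so the 0 reversals found are no check. Irf9, Ddx58, Dhx58 and Ifi35 changed sign under at least 1 scaling. No paired analysis was possible because each tissue has 1 library. Leaving out a replicate was not possible for the same reason. Among the 31 members with recovered reads, depth limits Ifitm1 (15 and 30 reads) and Oasl1 (19 and 96 reads) most.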

Other observations

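The 6 genes at or above 1 RPKM between Irgm1 and Tgtp2 on chromosome 11 (48861968 to 49064206), chosen after their values were seen, had log2 ratios from -2.31 to -1.11. Tgtp2 and its near copy Tgtp1, Irg GTPases that are also called Irgb genes, stood together at 45.7 RPKM in the marrow cells and 11.3 in the heart cells, a log2 ratio of -1.93 for the sum. Psme2b stood at 6.17 and 1.38 RPKM, and the Irg-like gene 9930111J21Rik2 at 8.17 and 0.850. Several of these rows are near copies or overlap, so they are not separate measurements. Just past Tgtp2, Ifi47, another Irg GTPase, stood at 5.48 and 3.43 RPKM, a log2 ratio of -0.55. Irgm2 and Igtp, elsewhere on chromosome 11, had 0.25 and 0.086.

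Of the 3 other rows within 100 kb of Iigp1 on chromosome 18, read in the same way, Gm6960 was listed at 0 in both libraries. F830016B08Rik stood at 0.483 RPKM in the marrow cells and 4.66 in the heart cells, and BC023105 at 0.332 and 1.41. Among interferon gamma targets under the floor, the chemokine gene Cxcl10 stood at 0.276 RPKM in the marrow cells and 2.50 in the heart cells, and Cd274, which encodes the checkpoint ligand PD-L1, at 0.450 and 2.21. These genes were chosen after their values were seen.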
